A study of Caenorhabditis elegans with 2 samples.

Results

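The 10 motor neuron transcription factor genes unc-3, unc-4, unc-30, unc-55, vab-7, bnc-1, cfi-1, mab-9, pag-3 and alr-1 were examined for occupancy by LIN-39, among 19973 protein-coding genes of Caenorhabditis elegans. The genes were listed by name, and a region of the peak lists belonged to a gene when its summit stood between 5 kb upstream of the annotated gene start and the gene end. The 10 windows covered 99.4 kb and held 46 of the 30000 candidate regions in the list the authors made from both replicates, here the joint list. Regions were ranked within a list by the deposited signal value, with rank 1 the highest. The data came from chromatin immunoprecipitation followed by sequencing (ChIP-seq) of whole L2 larvae of both sexes. The strain was OP18, in which the integrated transgene wgIs18 supplies an eGFP-tagged LIN-39 and the endogenous unc-119 gene carries the ed3 mutation. There was 1 group with 2 biological replicates, and neither another stage nor another genotype nor an untagged strain was analysed here. Each region is therefore described by its rank in 3 lists, and no comparison between conditions was possible. Motor neurons are a small share of the cells of a whole larva, and the joint list was deposited as peaks and background together. A region of low rank may therefore come from few cells, from weak occupancy or from background, and these cannot be told apart.

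LIN-39 is the Hox protein of the mid-body. In the ventral nerve cord it is known to act in cholinergic motor neurons together with UNC-3, a COE-type factor that switches on the cholinergic genes of these cells. Several of the other proteins act as repressors that separate one motor neuron class from the next: UNC-4 and VAB-7 are homeodomain proteins of the A and the DB class, UNC-55 is a COUP-TF-type nuclear receptor of the VD class, BNC-1 is a basonuclin zinc finger protein, CFI-1 is an ARID3-type protein and MAB-9 is a T-box protein. UNC-30, a Pitx-type homeodomain protein, and ALR-1, an Aristaless-type homeodomain protein, act in the GABAergic D-type neurons, and PAG-3, a Gfi-type zinc finger protein, acts in neuroblast descendants of the cord.

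The strongest regions stood in unc-3, pag-3 and cfi-1, and none of them was among the authors' optimal peaks, which were the strongest regions of the joint list. The intronic region of unc-3 had rank 315, 4 places below the last optimal peak, with a signal of 42.2 against 42.4 for that peak. An intronic region of pag-3 had rank 434, and a region 4963 bp upstream of cfi-1 had rank 826. The best regions of mab-9 and unc-4 had ranks 3834 and 4110, and those of unc-30, vab-7, unc-55, alr-1 and bnc-1 had ranks between 7881 and 22952. The unc-3 region was the 1 member region that ranked 1000 or better in both replicates, with rank 547 in replicate 1 and rank 900 in replicate 2, and 283 of all 30000 regions did so.

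The sequences at the best regions of unc-3, pag-3, mab-9 and unc-4 are given below because these are 4 of the 5 genes with a region of rank 5000 or better. The sequence of the cfi-1 region is not shown here. Each runs from 100 bases before to 100 bases after the summit on the plus strand of WBcel235 (ce11 coordinates), so the summit is base 101. Capitals mark matches on either strand to words that were searched in every region, and matches may overlap. The words were the repeat GAGAGA, the Hox with Pbx consensus TGATNNAT, the homeodomain core written TAATTA, the word bound by many GATA-type proteins, which is TGATAA, and the palindrome of COE proteins such as UNC-3.
unc-3: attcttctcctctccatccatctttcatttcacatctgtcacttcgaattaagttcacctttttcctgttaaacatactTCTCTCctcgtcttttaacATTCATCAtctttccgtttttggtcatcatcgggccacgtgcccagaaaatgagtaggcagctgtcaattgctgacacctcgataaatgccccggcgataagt
pag-3: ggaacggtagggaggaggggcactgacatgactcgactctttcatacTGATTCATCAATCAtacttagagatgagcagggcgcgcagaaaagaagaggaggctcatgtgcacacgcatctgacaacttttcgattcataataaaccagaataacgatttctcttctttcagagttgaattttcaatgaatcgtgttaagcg
mab-9: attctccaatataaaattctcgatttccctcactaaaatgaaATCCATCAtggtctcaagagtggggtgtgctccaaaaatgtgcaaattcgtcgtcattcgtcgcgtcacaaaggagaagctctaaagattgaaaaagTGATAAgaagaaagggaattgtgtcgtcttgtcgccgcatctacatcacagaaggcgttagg
unc-4: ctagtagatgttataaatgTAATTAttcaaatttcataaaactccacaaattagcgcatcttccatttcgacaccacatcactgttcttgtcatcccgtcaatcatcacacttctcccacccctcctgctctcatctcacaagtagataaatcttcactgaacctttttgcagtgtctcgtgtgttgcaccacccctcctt

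The unc-3 sequence lies at chrX:14780270-14780470, the pag-3 sequence at chrX:14952764-14952964, the mab-9 sequence at chrII:512043-512243 and the unc-4 sequence at chrII:9901746-9901946. In unc-3 a TGATNNAT match on bases 99 to 106 covered the summit itself, and a GAGAGA match stood on bases 80 to 85. The pag-3 sequence held 3 overlapping TGATNNAT matches within 14 bases, TGATTCATCAATCA, on bases 48 to 61. Of all 30000 regions, 100 (0.333%) held 3 or more matches to that word in the same window. The mab-9 sequence held 1 TGATNNAT and 1 TGATAA match, and the unc-4 sequence held 1 TAATTA match. The sequence of the best unc-30 region is not shown because it runs into an untranslated region.

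Across the member regions the words were found at shares on both sides of those in all regions. TGATNNAT was present in 10 of the 46 regions (21.7%), spread over every gene but bnc-1, and in 17.0% of all 30000 regions. TAATTA was present in 6 (13.0%, against 9.22% of all regions) and GAGAGA in 5 (10.9%, against 13.1% of all regions and 25.9% of the 2000 strongest). The GAGAGA regions included the strongest of unc-3, cfi-1 and unc-30. TGATAA was present in 3 member regions (6.52%, against 18.9% of all regions), and the COE palindrome in 0 of 46, against 0.133% of all regions. Among the 2000 strongest regions the shares were 18.9% for TGATNNAT, 8.25% for TAATTA, 15.8% for TGATAA and 0.3% for the COE palindrome. In the replicate 1 list alone TGATAA was present in 7 of 42 member regions (16.7%, against 18.9% of that list), and in the replicate 2 list alone in 3 of 43 (6.98%, against 18% of that list). TGATNNAT was present in 7 of 42 in replicate 1 (16.7%, against 16.9%) and in 6 of 43 in replicate 2 (14.0%, against 16.7%), so its higher share in the joint list was in neither replicate list. These shares are descriptions of letters and were not tested. The GC content of the member windows around the summits had a median of 38.3%, against 35.8% for all regions.

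**Figure D1:**
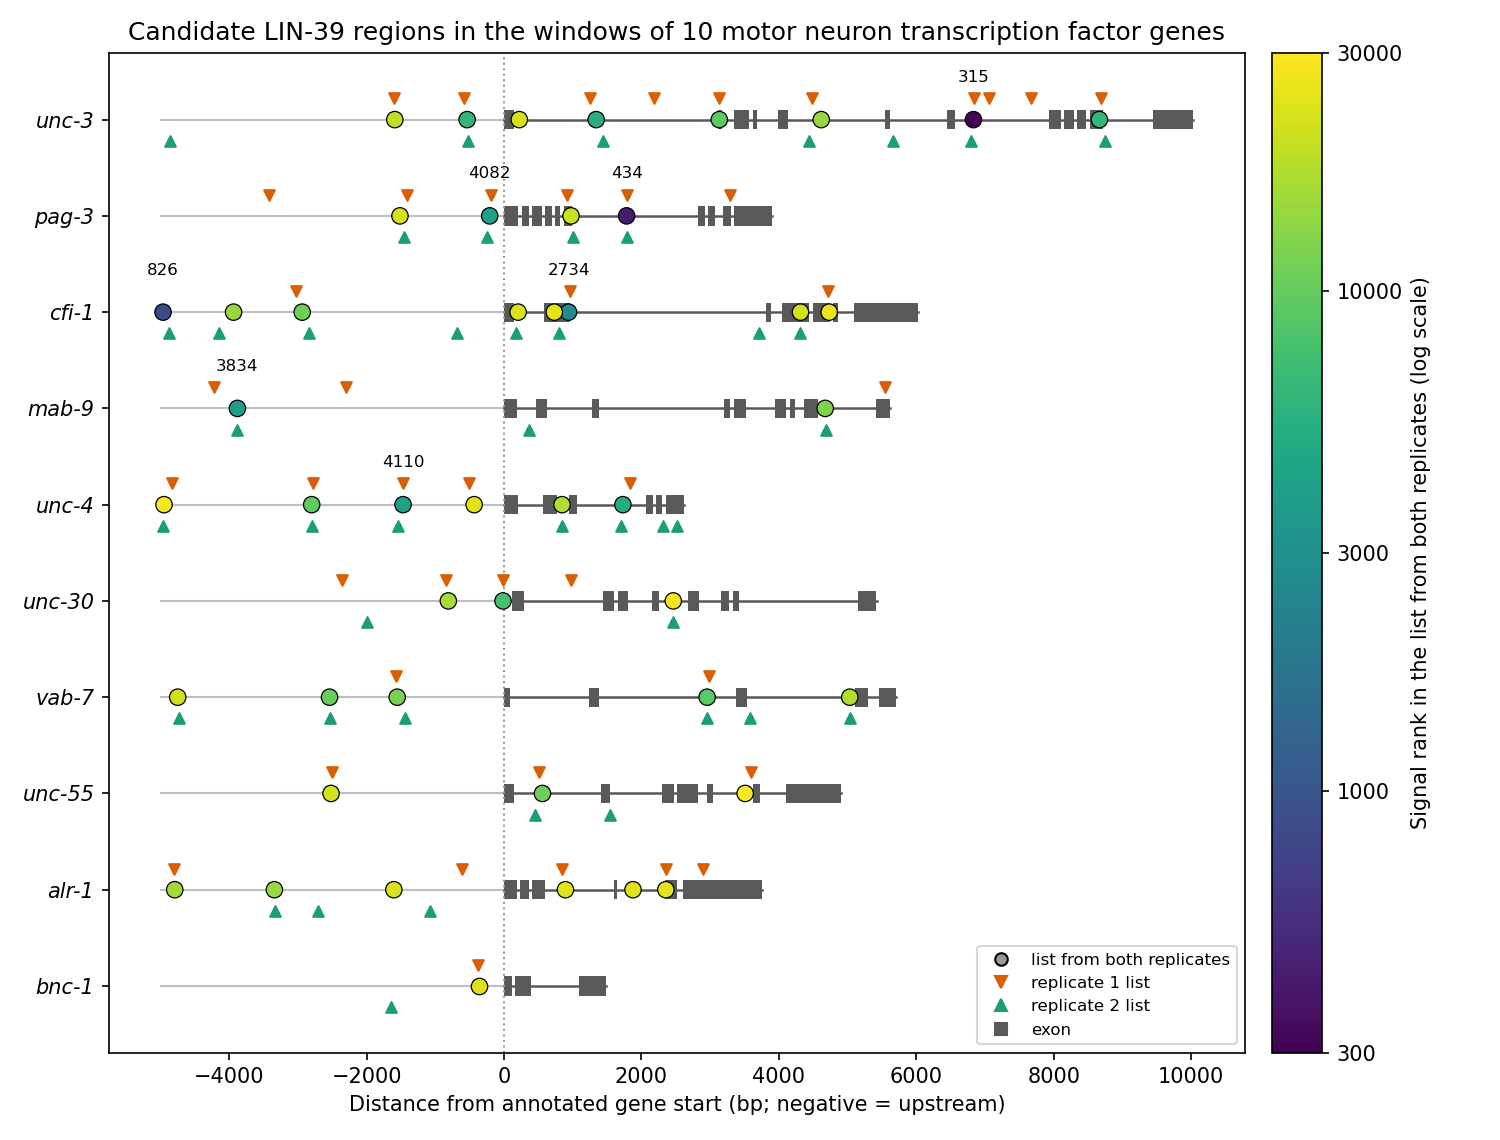
Summits in the windows of the 10 genes, as distance in bp from the annotated gene start (negative is upstream). Circles are regions of the list from both replicates, coloured by signal rank on a log scale and labelled where the rank is 5000 or better, triangles are regions of each replicate's own list, and boxes are exons of the transcript with the longest coding sequence. The darkest circles are the intronic unc-3 region (rank 315), the intronic pag-3 region (434) and the upstream cfi-1 region (826).

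All 10 genes had at least 1 candidate region in the window, which by itself says little, since 87.7% of protein-coding genes did. No member had a region among the optimal peaks, where the share of all genes was 2.54%. With ranks of 1000 or better there were 3 of 10 members, unc-3, pag-3 and cfi-1, against 7.28% of all genes. At the same limit the replicate 1 list alone gave 1 member, unc-3 (7.44% of all genes), and the replicate 2 list alone gave 3, mab-9 with unc-3 and pag-3 (7.57% of all genes), so cfi-1 was in neither count. Its replicate 1 region of rank 820 had its summit just outside the window. The same 3 genes made up the count at rank 2000 or better, against 13.8% of all genes. Among the 12211 genes with windows in the members' range of length, 6477 to 15031 bp, the share was 14.4%. Lengths were not matched within that range, and the median window was 10165.5 bp for the members and 7027 bp for all genes. At rank 5000 or better the count was 5 of 10, with mab-9 and unc-4 added, against 31.0% of all genes. The median best rank was 5995.5 for the members, 7785 for all genes with a region and 7529 for those with windows of the same length range.

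**Figure D2:**
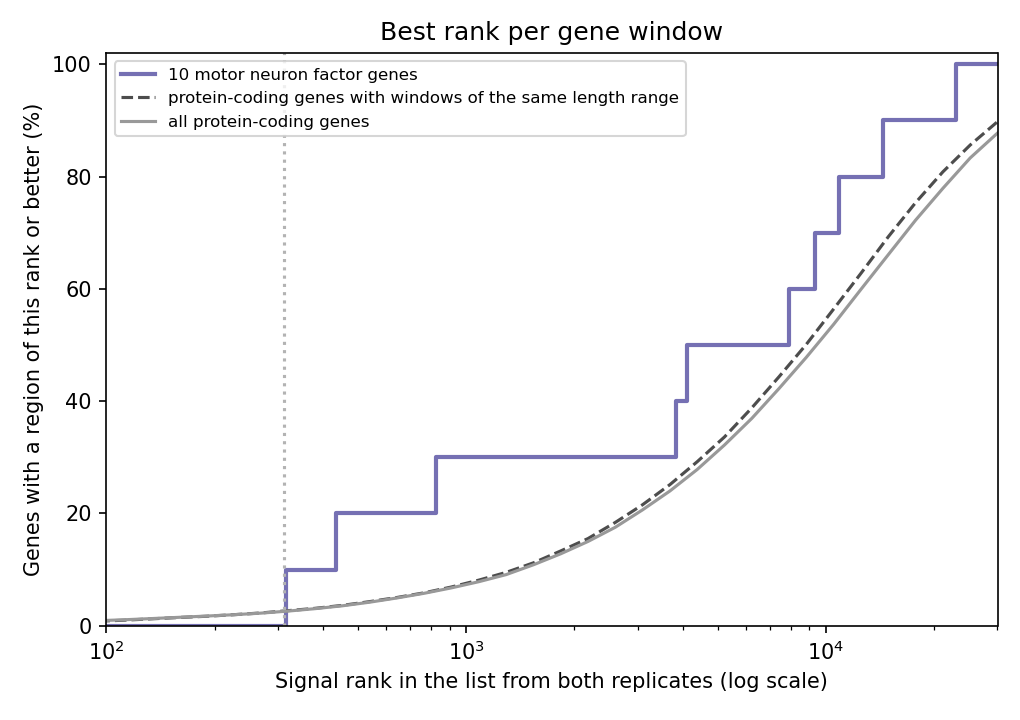
Share of genes (y axis, %) with a region at or better than each signal rank of the list from both replicates (x axis, log scale), for the 10 genes (stepped line), genes with windows of the same length range (dashed) and all protein-coding genes (grey). The dotted line marks the last optimal peak. The members' line leaves 0 at rank 315 and reaches 30% at rank 826, and it stays at that level until rank 3834.

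The regions were also closer together than elsewhere, at 4.63 per 10 kb of member window, against 2.99 per 10 kb over the windows of all protein-coding genes. The median member window held 4.5 regions and the median window of the same length range 2. Density varied among the genes, from 7.87 per 10 kb at unc-4 and 7.26 at cfi-1 to 1.88 at mab-9 and 1.54 at bnc-1. The 3 genes on the X chromosome, unc-3, pag-3 and alr-1, held 18 regions at 5.51 per 10 kb, against 3.57 over the whole of X. The 7 autosomal genes held 28 at 4.19 per 10 kb, against 2.87 over all autosomes. The members' regions as a set were not stronger than others, with a median rank of 15277 against 15000.5 for all regions, and 31 of 46 (67.4%) had ranks over 10000, against 66.7% of all regions.

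Of the 46 summits, 22 stood upstream of the gene, 16 in an intron and 8 in a coding exon, where upstream sequence made up 50.0 kb of the windows, introns 34.7 kb and exons 14.7 kb. A summit within 500 bp of the annotated gene start was found in 6 of the 10 genes, against 28.4% of all protein-coding genes, with no rank limit in either count. Only that of pag-3, of rank 4082, was on both replicate lists. The others had rank 7881 at unc-30, 22475 at unc-3, 22912 at cfi-1, 22952 at bnc-1 and 24127 at unc-4. For 39 of the 46 regions (84.8%) the nearest coding 5′ end was that of the member itself. Over all protein-coding genes this held for 25437 of 49202 pairs of a window and a region in it (51.7%). The window of no other protein-coding gene held 31 of the 46 (67.4%), against 13729 of the 49202 pairs (27.9%). Both shares count pairs of a gene window and a region in it. A region in several windows enters the pairs over all genes once per window, while no region lay in the windows of several members. The shares of pairs over all genes are therefore lower than shares of the 30000 regions would be, and are not to be read as such. The exception among the genes was mab-9, for which both regions of the joint list were nearer another gene. An annotated gene start in this species often lies downstream of the site where transcription begins, because leaders are trans-spliced.

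Agreement between replicates was partial. Of the 46 regions, 20 (43.5%, exact Clopper-Pearson 95% interval 28.9 to 58.9, covering the counting of regions only) overlapped a region of both replicate lists by at least 1 bp, against 34.9% of all regions. A further 12 overlapped a region of replicate 1 alone (26.1%, against 30.4% of all regions), 11 of replicate 2 alone (23.9%, against 27.0% of all regions) and 3 of neither list (6.52%, against 7.68% of all regions). The interval treats the 46 regions as independent, although they lie in 10 genes and a pair at cfi-1 matched the same replicate regions. Of the 7 member regions of rank 5000 or better, 6 were on both lists (85.7%, against 80.4% of all regions of such rank), and the 1 missing from a list was that of mab-9. Where both lists had a region, the 2 ranks differed by a median factor of 2.28 and by up to 18.6. Over these 20 regions the replicate ranks had a Spearman rho of 0.16, against 0.17 over the 10467 such regions of the genome, given as descriptions of sites that share 1 pair of libraries.

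**Figure D3:**
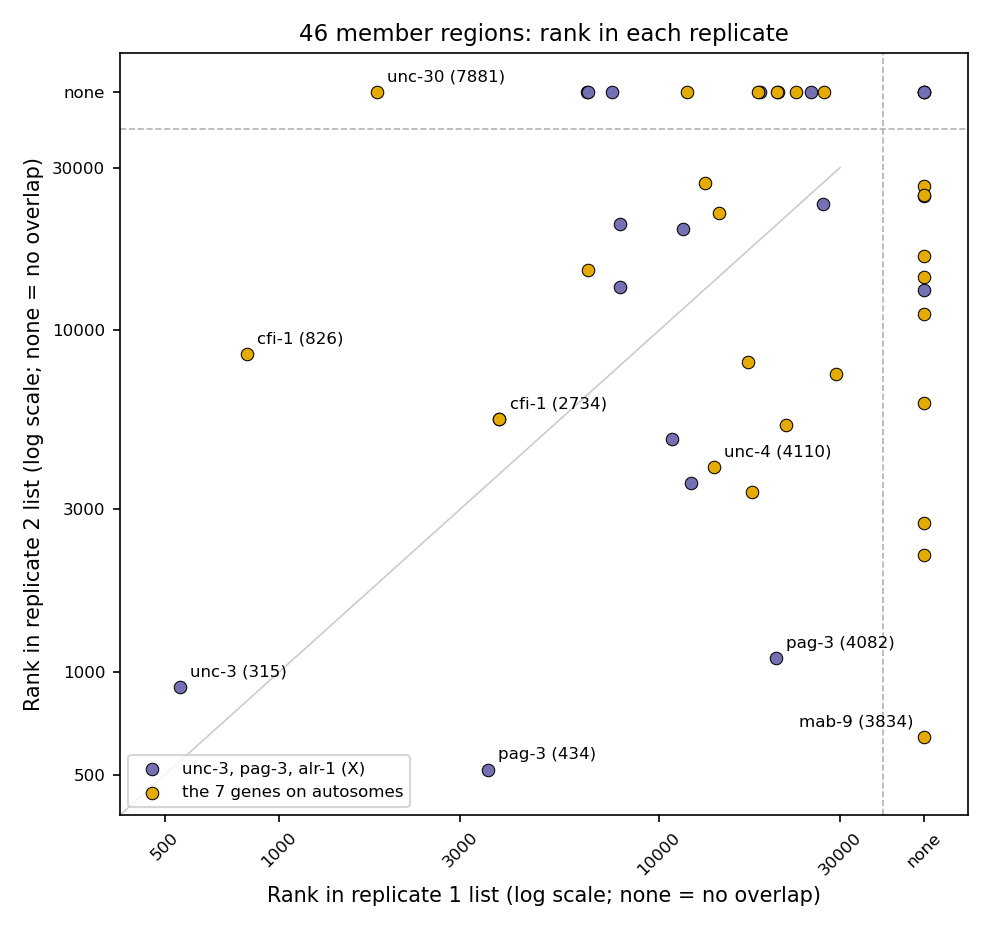
Rank of each of the 46 member regions in the replicate 1 list (x axis) and the replicate 2 list (y axis), both on log scales, with "none" where no region overlapped, and the rank in the list from both replicates in brackets for the labelled ones. The diagonal marks equal ranks. The unc-3 region (547 and 900) is the 1 point below rank 1000 on both axes, while the strongest mab-9 and unc-30 regions are each on 1 replicate's list only.

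The cholinergic selector gene unc-3 (WBGene00006743, chrX:14773538-14783568, plus strand) held 8 regions, 5 of them on both replicate lists. The strongest, at chrX:14780215-14780524, had its summit 6832 bp inside the gene in intron 7 of 11, an intron of 1367 bp. The replicate summits stood 9 bp (replicate 1) and 34 bp (replicate 2) from it. The next regions ranked far lower, at 5452 in intron 1, 6178 in a coding exon and 6367 at 537 bp upstream of the start. The region of rank 5452 ranked 12124 in replicate 1 and 3570 in replicate 2, and the upstream region 10812 in replicate 1 and 4816 in replicate 2. A region 222 bp inside the gene had rank 22475 and was on neither replicate list. Signal at unc-3 was highest far inside the gene and not at its start.

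The neuroblast-lineage gene pag-3 (WBGene00003909, chrX:14950752-14954648, minus strand) held 4 regions, and all 4 were on both replicate lists. The strongest, at chrX:14952709-14953018, stood 1784 bp inside the gene in intron 6 of 9, an intron of 1839 bp. It ranked 3547 in replicate 1 and 516 in replicate 2, with both replicate summits 2 bp from the summit of the joint list. A region 209 bp upstream of the start had rank 4082, but the replicates were far apart, at 20323 in replicate 1 and 1094 in replicate 2. Both leading pag-3 regions ranked higher in replicate 2 than in replicate 1. The remaining regions had ranks 20790 and 22509.

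Among the class repressors, cfi-1 (WBGene00000476, chrI:9993906-9999928, minus strand) held 8 regions, 4 on both lists, of which a neighbouring pair shared its replicate regions. The strongest, at chrI:10004736-10005045, stood 4963 bp upstream, at the edge of the window, and cfi-1 had the nearest coding 5′ end. It ranked 820 in replicate 1 and 8545 in replicate 2. The replicate 1 summit lay just outside the window, so the best replicate 1 region counted for cfi-1 was another, of rank 3798. That region overlapped the second cfi-1 region, which had rank 2734 at 939 bp inside the gene in a coding exon and ranked 5502 in replicate 2. Another upstream site, 3937 bp from the start, had rank 2735 in replicate 2, no region in replicate 1 and rank 14741 in the joint list.

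The A-class homeobox gene unc-4 (WBGene00006744, chrII:9897751-9900376, minus strand) held 6 regions, 4 on both lists. Its strongest region, at chrII:9901691-9902000, stood 1470 bp upstream and ranked 13939 in replicate 1 and 3971 in replicate 2. The next, of rank 5122 in intron 3, ranked 29252 in replicate 1 and 7444 in replicate 2. Another pair of upstream regions lay inside the neighbouring gene F26C11.3. In neither replicate did unc-4 reach rank 2000.

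The T-box gene mab-9 (WBGene00003106, chrII:516024-521635, plus strand) held 2 regions, and neither was on both lists. The stronger, at chrII:511988-512297, stood 3881 bp upstream of mab-9 and 2813 bp from the 5′ end of srh-105, a chemoreceptor-family gene. It had rank 644 in replicate 2, with the summits 4 bp apart, and no overlapping region in replicate 1. The nearest replicate 1 region in the window, of rank 6712, stood 4227 bp upstream of mab-9. The second region of the joint list, in the last intron, was nearest slc-36.2. Nearest mab-9 itself were a replicate 1 region of rank 4144, 2306 bp upstream, and a replicate 2 region of rank 14645, 356 bp inside the gene. Neither overlapped a region of the other replicate list or of the joint list.

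The DB-class homeobox gene vab-7 (WBGene00006873, chrIII:10920344-10926041, plus strand) held 5 regions, 2 of them on both lists. The best joint rank was 9299, in intron 2, with rank 6492 in replicate 1 and 15065 in replicate 2. Upstream of the gene replicate 2 had higher ranks: 2205 at a site 2540 bp from the start that replicate 1 lacked, and 3355 at a site 1555 bp from it, which ranked 17576 in replicate 1. The VD-class gene unc-55 (WBGene00006790, chrI:7898434-7903334, minus strand) held 3 regions, the best of rank 10867, in intron 1 at 559 bp from the start, with rank 21680 in replicate 1 and 5273 in replicate 2. The basonuclin gene bnc-1 (WBGene00044791, chrV:12275570-12277046, minus strand) held a single region, 364 bp upstream of the start, with rank 22952. That region ranked 27175 in replicate 1 and had no counterpart in replicate 2, whose 1 region in the window, 1639 bp upstream, had rank 28004. The gene bnc-1 had the weakest best rank of the 10 genes in all 3 lists.

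Of the GABAergic genes, unc-30 (WBGene00006766, chrIV:13118977-13124406, plus strand) held 3 regions, and 0 were on both lists. The best, at chrIV:13118807-13119116, had its summit 15 bp upstream of the gene start, the closest of all member regions to a start. It had rank 1807 in replicate 1, no counterpart in replicate 2 and rank 7881 in the joint list. The gene alr-1 (WBGene00044330, chrX:11121871-11125620, minus strand) held 6 regions, none better than rank 14448, and 0 were on both lists. Its best replicate 1 region had rank 6503 and its best replicate 2 region rank 13164, at different places. In the joint list its best rank was the second weakest of the 10 genes, but with 10 kb of upstream sequence it was 3504, the fourth strongest.

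Counted by replicate, 2 of 10 genes had a region of rank 2000 or better in replicate 1, unc-3 and unc-30 (14.0% of all genes), and 3 in replicate 2, pag-3, mab-9 and unc-3 (14.2% of all genes). Only unc-3 was in both counts. The replicate lists held 42 (replicate 1) and 43 (replicate 2) regions in the windows, and 19 of each overlapped the other list. These were 45.2% of the replicate 1 regions, against 36.8% of that whole list, and 44.2% of the replicate 2 regions, against 36.3% of that list. No region of the joint list was overlapped by 11 of the replicate 1 regions (26.2%, against 33.7% of that list) and 13 of the replicate 2 regions (30.2%, against 38.2% of that list).

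The same window was applied to 7 other regulators of cord neurons and to the Hox genes lin-39 and mab-5. Of these 9 genes, 8 had a region, 5 had one of rank 2000 or better and 2 had an optimal peak, against 3 of 10 and 0 of 10 for the listed genes. The optimal peaks belonged to zag-1, a zinc finger homeodomain gene, with rank 157 in intron 4 (1870 in replicate 1 and 81 in replicate 2), and to unc-37, the Groucho-type corepressor gene that works with unc-4, with rank 277 (200 in replicate 1 and 9634 in replicate 2). The unc-37 summit stood 1309 bp upstream of that gene, inside its neighbour fnci-1. The best rank was 388 at mab-5, 716 at egl-46, a zinc finger gene, and 1293 at irx-1, an Iroquois homeobox gene. It was 3632 at hlh-3, a proneural bHLH gene, 13400 at ceh-12, an HB9-type homeobox gene, and 13890 at lin-11, a LIM homeobox gene. In the replicate lists the best rank at ceh-12 was 4691 (replicate 1) and 1461 (replicate 2). In the same order it was 18005 and 4076 at lin-11 and 7311 and 8604 at hlh-3. The ceh-12 region of rank 13400 stood 178 bp from the 5′ end of twk-47. The lin-39 window, 12992 bp long, held 0 regions in each of the 3 lists, whereas 87.7% of protein-coding genes had a region in the joint list. The strain also carries lin-39 sequence in its transgene, and whether this bears on the empty window was not tested. The empty window therefore shows no absence of LIN-39 there.

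**Figure D4:**
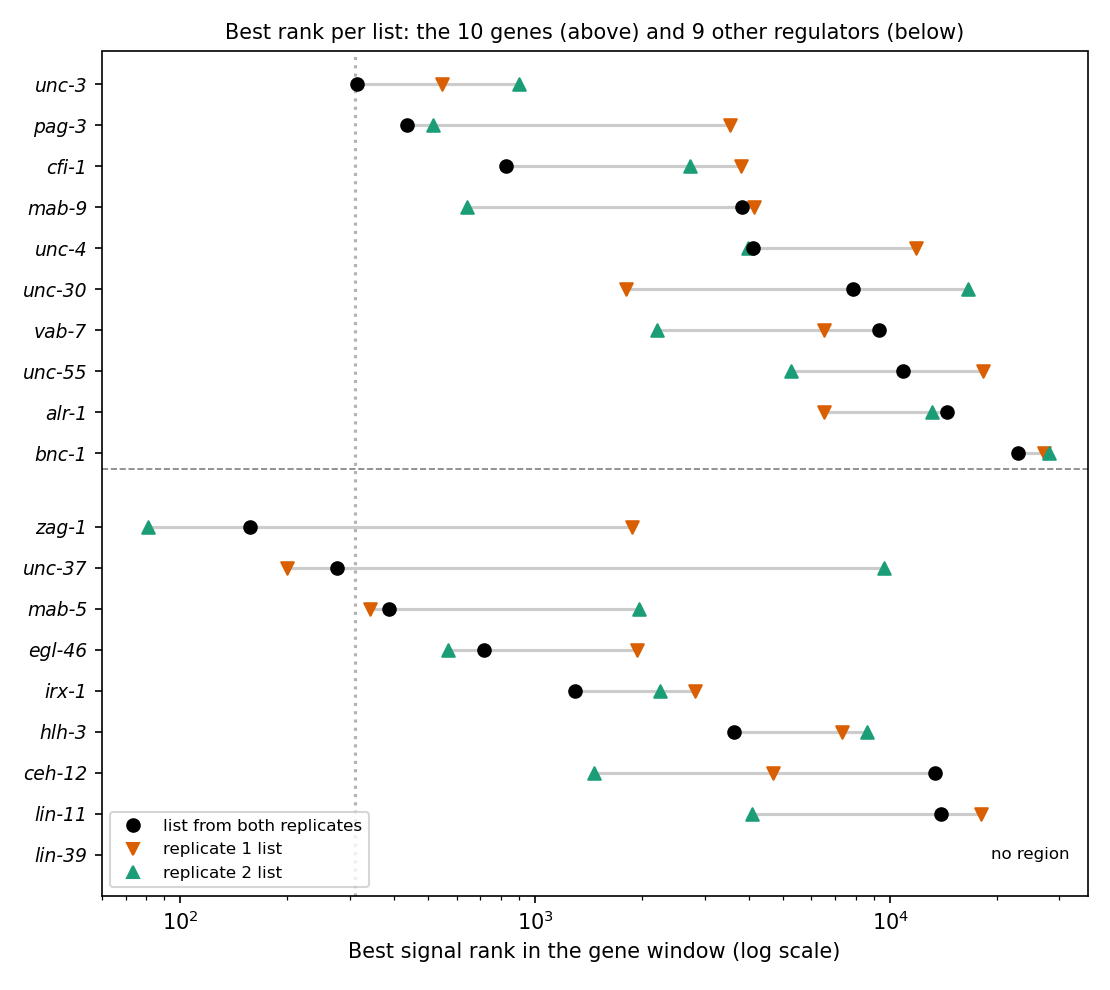
Best signal rank in the window (x axis, log scale) for the 10 genes (above the dashed line) and 9 other regulators (below it), in the list from both replicates (black circles), the replicate 1 list and the replicate 2 list (triangles). The dotted line marks the last optimal peak. The lists differ most at unc-37 (200 and 9634) and zag-1 (1870 and 81) below the line and at unc-30 (1807 and 16569) above it.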

How the data were processed

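ChIP-seq of eGFP-tagged LIN-39 in L2 larvae was represented by narrowPeak lists on ce11. Per the deposited text files, each replicate's candidate list came from that replicate's alignments, the joint list from the alignments of both, each with 1 further file whose nature is not stated there, and the optimal peaks came from all 3 lists. Aligner, caller and thresholds: not given in the sources used here. The candidate lists have 30000 regions each, of a fixed width per list: 330 bp (replicate 1), 300 bp (replicate 2) and 310 bp (joint), the summit being in the middle. The deposited signal value has no stated scale and was used only to rank regions within a list. Read depth is unknown, so precision per region is too. Lists on ce10 were not used, because no genome of that build was at hand.

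Gene models were Ensembl release 115 on WBcel235, and sequences were read from the RefSeq copy of that assembly. Each joint region took the best rank among overlapping replicate regions. No tests between conditions were run: counts stand beside the same count over all genes or regions. Alternatives covered the window, the rank limit, the overlap rule, the nearest 5′ end, the transcript and each replicate alone. All 10 members, 9 further regulators and the genes nearest their strongest regions were named by rule. The members and lists were chosen with earlier results of these data known. Window and overlap counting was tested on simulated data. Python 3.11.15, NumPy 2.4.6, pandas 2.3.3, SciPy 1.17.1 and Matplotlib 3.10.9 were used.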

Additional observations from a re-analysis of the deposited data

How the results depend on the processing

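The counts of genes and regions kept within a factor of 1.5 under most alternatives. The number of members with a region of rank 2000 or better was 2 to 3 with 1 replicate left out, 0 when limited to the optimal peaks and 5 at a limit of rank 5000. The median best rank was 5995.5. It was 8590 with 2 kb of upstream sequence (9918.5 for all genes), 3972 with 10 kb (5527 for all genes), 7881 when the member had to have the nearest coding 5′ end (which left out mab-9; 10402 for all genes), and 3353 to 5318 with 1 replicate left out (7779.5 to 7876.5 for all genes). The cfi-1 region of rank 826 was lost with 2 kb upstream, leaving rank 2734, and mab-9 then had 12292. The best rank of pag-3 was 3547 without replicate 2 and 516 without replicate 1. The share of regions on both replicate lists was 43.5%, 26.1% when summits had to be at most 100 bp apart and 4.35% when both replicate ranks had to be 5000 or better. With 1 replicate left out, alternatives chosen after seeing the data, summits in exons numbered 4 to 9, regions with TGATNNAT 6 to 7 and regions with TGATAA 3 to 7. The cause of these moves was not tested. Ranking by largest overlap changed 0 replicate ranks. No paired analysis was possible because there was 1 group and no test. Depth is unknown, so a low rank shows no absence of LIN-39.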
